A study of Mus musculus with 14 samples.

Results

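Sdk1, Cadm1 and Ntn4 are 3 mouse genes for adhesion and guidance proteins that the authors' methylation tables list as differing between mammary tumours of offspring by maternal diet. They were chosen by measured values: every table row of the RNA and methylation comparisons that names one of these genes, or flanks it, was included. This gave 2 of the 1324 genes called in RNA, 15 of the 4327 listed CpG sites and 3 of the 139 listed methylated regions. Of the sites, 9 belonged to Sdk1, 6 to Cadm1 and 0 to Ntn4, and each gene had 1 region. Because the values below selected the genes, their differences between the diets are given as a description, without a test.

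The tumours came from FVB mice carrying the SV40 Tag transgene, which encodes a viral oncoprotein that inactivates p53 and the retinoblastoma protein. Both groups were offspring about 25 weeks old that ate control diet themselves, and they differed in what their mothers ate. Control mothers ate control diet, and the mothers of the maternal genistein group ate 250 mg/kg genistein, a soy isoflavone, from an age of 4 weeks up to weaning. Transcripts were sequenced in 3 control and 4 maternal genistein tumours, and so was DNA by RRBS, a bisulfite method that measures CpGs in a reduced part of the genome, commonly in fragments cut at CCGG. The labels name neither the promoter of the transgene nor the litters of the offspring. They also do not say whether an RNA library and an RRBS library with the same number share a tumour. Any p-value therefore measures only the spread between these libraries. Genes outside the deposited list of called genes were not analysed here, so the tissue label could not be checked against its defining markers.

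Sdk1 encodes sidekick cell adhesion molecule 1, a large immunoglobulin-superfamily protein that binds copies of itself on the neighbouring cell and is best known from synapses of the retina. Cadm1 encodes a nectin-like adhesion molecule of epithelia, nerve and mast cells, and in human carcinomas its promoter is known to be methylated and silent. Ntn4 encodes netrin-4, a secreted protein of the laminin-related netrin family that lies in basement membranes, binds laminin chains and affects how those sheets assemble. Methylation of CpGs at a promoter usually goes with silence of the gene, whereas methylation inside the body of a gene is common in genes that are transcribed.

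The sequence before the annotated start is shown for Sdk1 and Ntn4, because these CpG-dense windows are where methylation is usually read against expression and because they held 0 listed sites. The sequences are from RefSeq on build GRCm38.p6, plus strand, 5′ to 3′, with each CpG in capitals. Sdk1 is chr5:141241284-141241496 and Ntn4 is chr10:93640799-93641048. Of the 3 genes, 2 had a RefSeq promoter entry, and Cadm1 is named only.
Sdk1: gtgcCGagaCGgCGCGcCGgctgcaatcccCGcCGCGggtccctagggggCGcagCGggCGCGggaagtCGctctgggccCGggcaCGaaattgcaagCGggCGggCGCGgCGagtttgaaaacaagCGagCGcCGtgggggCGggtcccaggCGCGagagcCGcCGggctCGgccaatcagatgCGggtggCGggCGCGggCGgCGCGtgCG
Ntn4: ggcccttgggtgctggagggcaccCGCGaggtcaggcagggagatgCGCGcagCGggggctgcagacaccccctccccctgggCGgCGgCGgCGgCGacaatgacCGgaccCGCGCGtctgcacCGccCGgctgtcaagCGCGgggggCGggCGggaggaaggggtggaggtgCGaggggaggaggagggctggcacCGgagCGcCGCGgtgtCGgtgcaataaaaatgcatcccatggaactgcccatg
The Sdk1 stretch of 213 bases held 37 CpGs, and its full window of 250 bases held 44, a number that 0.539% of 32851 RefSeq promoter windows of that length reached. The Ntn4 window of 250 bases held 26 CpGs, which 9.59% of windows reached, against a median of 6. The letters CCGG, which read the same on both strands and contain a CpG themselves, occurred 3 times in each printed stretch, and 47.1% of all windows held at least 1. The nearest listed site lay 35.9 kb from the start of Sdk1 and 404 kb from that of Ntn4. The deposited list holds only sites that passed its limits of coverage, difference and q-value. A window without listed sites may be uncovered or may not have passed, so these windows are not shown to be unchanged.

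Methylation at Sdk1 was higher in maternal genistein tumours at 9 of 9 listed sites. These lay inside the gene, from 3.69% to 84.1% of the way along it. Averaged over the 9 sites, the control libraries stood at 39.8%, 29.1% and 41.4%, and the maternal genistein libraries at 76.2%, 66.9%, 79.9% and 83.6%. The groups did not overlap on this average, with 36.8% ± 6.70 (SD, n = 3) against 76.6% ± 7.16 (SD, n = 4), a difference of 39.9 percentage points. Sdk1 spans 974 kb of chromosome 5, from 141241497 to 142215586 on GRCm38.p6, and its sites covered 782940 bases of that length, with gaps of 63 to 304263 bases. In the authors' annotation 8 of these sites were intronic and 1 was exonic.

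The first site, at chr5 position 141277400 (mm10, intron), lay 35.9 kb after the gene start, or 3.69% of the way along the gene. It was covered by 69 to 98 reads a library. Methylation there was 15.8%, 33.3% and 33.0% in control tumours, and 87.8%, 80.9%, 65.1% and 81.4% in maternal genistein tumours. The lowest maternal genistein library stood 31.7 points above the highest control library, the widest gap among the 9 sites.

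Among the 5 intronic sites in the middle of Sdk1, 2 kept the groups apart. At position 141557016 the control libraries read 53.4%, 46.4% and 54.3%, and the maternal genistein libraries 91.5%, 63.5%, 92.4% and 89.2%. The second maternal genistein library stood below the other maternal genistein libraries there, yet above every control. At position 141627924 the control libraries read 92.9%, 46.0% and 72.2%, and the maternal genistein libraries 100%, 100%, 95.3% and 100%. The groups missed each other by 2.46 points, and without the second control library the difference fell from 28.5 to 16.3 points.

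The other middle sites overlapped between the diets. Position 141564543 read 72.5%, 53.6% and 38.3% in control tumours and 71.6%, 91.7%, 79.5% and 90.0% in maternal genistein tumours. The highest control library slightly exceeded the lowest maternal genistein library. This site was the member nearest the 25-point limit of the deposited list, with 25.7 points in the authors' deposited table, and the smallest difference anywhere in that list was 25.0. Position 141615008 read 47.7%, 2.78% and 41.7% in control tumours and 44.0%, 84.0%, 60.7% and 76.3% in maternal genistein tumours. Its second control library was far below the other controls, and without that library the difference fell from 35.5 to 21.6 points.

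At a pair of intronic Sdk1 sites the controls were almost without methylation and 1 maternal genistein tumour was like them. Position 141733938 read 5.71%, 0% and 0% in control tumours and 36.7%, 0%, 72.7% and 56.5% in maternal genistein tumours. Position 142038201 read 0%, 0% and 0% in control tumours and 68.4%, 0%, 75.6% and 58.8% in maternal genistein tumours. The same maternal genistein library, the second, was at 0 at both. Its zeros rested on 13 and 15 reads, which allow a level of up to 23.1% and 20% (3 reads of the total, counting error only). The control zeros at position 142038201 rested on 23, 23 and 24 reads and allow up to 13.0%, 13.0% and 12.5%. Across the whole list, 17 of 4327 sites had every control at or below 10%, 1 maternal genistein library at or below 10% and the other maternal genistein libraries at 30% or above. The low library was the second in 6 of those sites, the first in 7, the third in 3 and the fourth in 1.

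The exonic site of Sdk1, at position 142038264, lay only 63 bases after position 142038201 and did not show that zero. It read 20%, 14.3% and 74.5% in control tumours and 85.7%, 85.7%, 100% and 100% in maternal genistein tumours. The second maternal genistein library was at 85.7% here on 14 reads. The third control library stood well above the other controls. The last site, intronic position 142060340, was covered by 81 to 176 reads and read 50.3%, 65.5% and 59.1% in control tumours against 100%, 96.4%, 77.9% and 100% in maternal genistein tumours. The groups stood 12.3 points apart there.

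**Figure D1:**
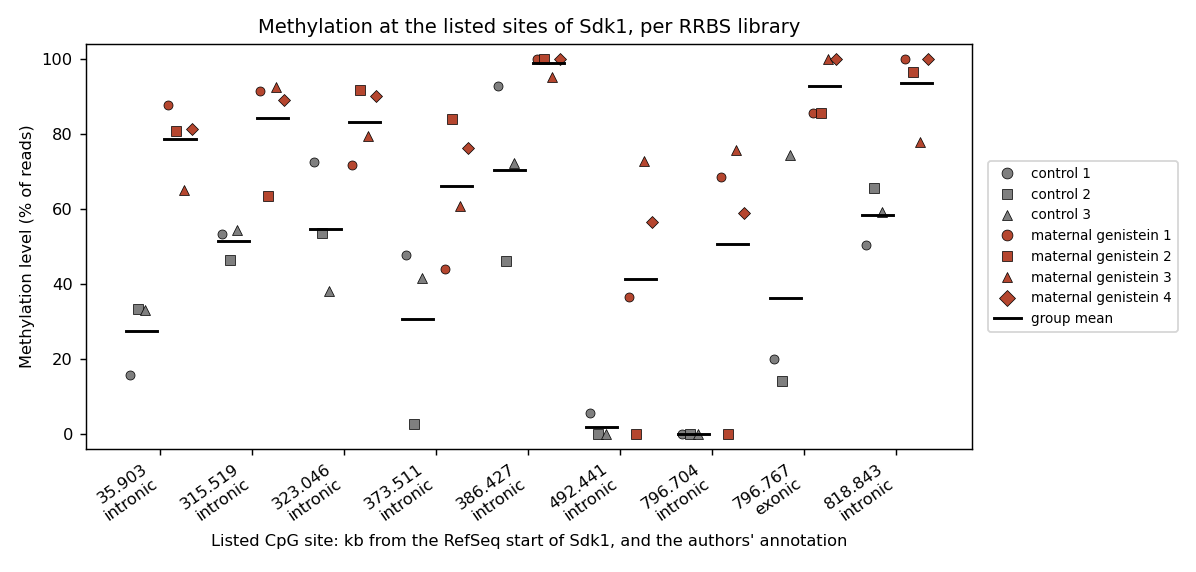
Percent methylation (vertical axis) at the 9 listed Sdk1 sites in the order of their position (horizontal axis), with 1 point for each RRBS library and a bar at each group's mean. The groups are apart at 5 sites, and 1 maternal genistein library lies at 0 at the sixth and seventh sites.

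The exact 95% binomial intervals (Clopper-Pearson) show how far single libraries were fixed by their reads. For the second maternal genistein library the interval ran from 0 to 21.8% at position 142038201 and from 57.2% to 98.2% at position 142038264, so these neighbouring values differed by more than counting error within that library. This was not particular to it. In the third control library the intervals were 0 to 14.2% and 60.4% to 85.7%. In the fourth maternal genistein library they were 32.9% to 81.6% and 83.9% to 100%. The intervals of the other libraries overlapped between these positions. In all, 5 of 9 Sdk1 sites had groups that did not overlap, each of them higher in maternal genistein tumours. In the whole list 27.8% of sites had groups apart, 15.4% in the higher and 12.3% in the lower direction, and 53.1% of listed sites were higher in maternal genistein tumours. These shares are printed as the background of the list, and since the list was itself selected on this contrast, nothing is read from the comparison.

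The likeness between Sdk1 sites depended on whether the group difference was kept in. Over the 36 pairs of sites the median Pearson's r was 0.66, and with each group's mean removed it was -0.15, with 14 pairs above 0 and a range of -0.59 to 0.96. The pair at 141733938 and 142038201, which shared the zero of 1 library, had r = 0.95, and 0.90 with group means removed. It was not the most alike pair. Positions 141557016 and 142038201 had r = 0.97, and 0.96 with group means removed. Positions 141277400 and 142060340 had r = 0.98, and 0.93 with group means removed. The points of each pair share libraries and read depth, and n is 7. No single library was lowest throughout: among the 4 maternal genistein libraries, the second and the third were each lowest at 3 Sdk1 sites, the first at 2 and the fourth at 0, and the remaining site had a tie.

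Few genes held as many listed sites. Of 1540 genes with a listed site annotated to them and not as intergenic, 1070 had 1 site, 2 had more than Sdk1 and 2 had as many. The 2 with more were Camta1, a transcription activator, with 11 sites of which 8 were lower, and the homeobox gene En1 with 10 sites, all lower. The 2 with as many were Cux2, a homeobox gene with 7 of 9 sites higher, and Cdh13, which encodes a cadherin anchored by a lipid, with 6 of 9 lower. Of the 25 genes with at least 5 sites, 13 had all their sites in 1 direction. Sdk1 is also a long gene, and its density was 0.924 listed sites per 100 kb against 4.68 for Cux2 and 0.760 for Cdh13. Its closest relative Sdk2, the other sidekick gene, held 6 sites on chromosome 11, of which 4 were higher and 2 lower, from -39.3 to 51.4 points.

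Sites of other genes whose levels followed the Sdk1 average most closely were sought among 584 candidates with at least 20 reads in every library. An intronic site in Scn4a, which encodes a muscle sodium channel, at chr11 position 106321689 had r = 0.98, with 41.1% ± 8.13 (SD, n = 3) in control tumours against 78.1% ± 9.88 (SD, n = 4) with maternal genistein. The next, at chr11 position 117233025, had r = 0.98, and its gene symbol is held as a date in the table. An intronic site in Dlg5, a scaffold gene of cell polarity, at chr14 position 24234806 also had r = 0.98, with 33.0% ± 2.64 (SD, n = 3) against 79.3% ± 4.73 (SD, n = 4). In all, 28 candidates had r above 0.9, and the 7 libraries are shared by every point. Group means were kept in these r values, and every candidate was listed for a difference between the same groups. A high r therefore partly restates that selection.

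The listed sites assigned to Cadm1 changed with opposite sign inside the gene and far before it. Cadm1 lies on chromosome 9 from 47530170 to 47862280 (GRCm38.p6, 332 kb), and its 6 listed sites formed 3 places: 3 intergenic sites 293877 to 293989 bases before the start, 2 intronic sites 3561 and 3678 bases after the start, and 1 intergenic site 17955 bases beyond the end. The intergenic sites are counted only because the authors' annotation names Cadm1 as a flanking gene. Whether they act on Cadm1 was not tested. The intronic pair averaged 11.3% ± 13.1 (SD, n = 3) in control tumours against 58.1% ± 33.2 (SD, n = 4) with maternal genistein. The upstream trio averaged 64.8% ± 18.5 (SD, n = 3) against 22.0% ± 14.2 (SD, n = 4). The difference, maternal genistein minus control, was 46.8 points in the intron and -42.8 points upstream.

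The intronic Cadm1 sites lay 117 bases apart near the start of the gene, and both overlapped between the diets. Position 47533731 read 8.89%, 4.62% and 34.1% in control tumours and 53.0%, 21.3%, 74.4% and 100% in maternal genistein tumours, on 39 to 94 reads. Position 47533848 read 1.64%, 0% and 18.5% in control tumours and 100%, 5.33%, 33.3% and 77.8% in maternal genistein tumours, on 15 to 75 reads. At both sites the second maternal genistein library was within the range of the controls, and the third control was the highest control. At the second of these sites the pooled reads, which weight deep libraries more, gave 31.8 points against 47.4 points from the library means, and without the second maternal genistein library the difference at the pair rose to 61.8 points.

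The upstream Cadm1 sites were lower in maternal genistein tumours, but only 1 of the 3 kept the groups apart. Position 47236181 read 48.9%, 32.8% and 95.8% in control tumours and 8.16%, 12.3%, 38.7% and 52.4% in maternal genistein tumours. Its neighbour at position 47236182 read 87.7%, 8.33% and 81.7% in control tumours and 0%, 15.5%, 27.3% and 26.3% in maternal genistein tumours. At the first of these positions the third control library stood above the other controls, and at the second position the second control library stood below them. Without the third control library the difference at 47236181 shrank from -31.3 to -13.0 points. At 47236182 it was -42.0 points, -27.8 without the first control library and -67.5 without the second.

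Position 47236293, 111 bases further on, read 72.2%, 91.9% and 63.6% in control tumours and 36.4%, 0%, 0% and 46.7% in maternal genistein tumours. Every control was above every maternal genistein library, by at least 17.0 points, but the coverage was 10 to 37 reads. The zeros of 13 and 10 reads allow up to 23.1% and 30%. The pair at 47236181 and 47236182 occupies adjacent bases, which are the positions of the 2 strands of a CpG when the first holds its C and the second its G. Their levels differed by 18.0 points on average over the libraries, and by at most 38.8, the 2nd largest average among 13 adjacent pairs in the list, whose median was 12.6. The base at each position was not read here.

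The downstream site at 47871346 read 20.5%, 8.82% and 43.2% in control tumours and 81.1%, 79.3%, 12.2% and 35% in maternal genistein tumours. The maternal genistein libraries fell on both sides of the third control. The difference was 27.7 points by library means, 40.5 with reads pooled, and 18.0 without the first maternal genistein library. In all, 1 of the 6 Cadm1 sites had groups apart, in the lower direction, where the list as a whole had 27.8% of sites apart and 12.3% apart and lower.

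**Figure D2:**
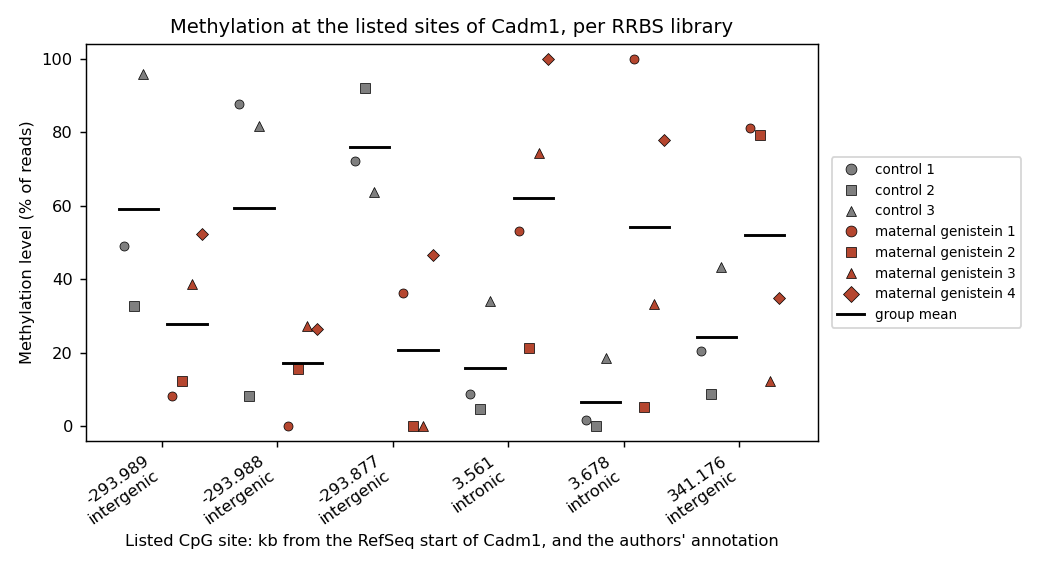
Percent methylation (vertical axis) at the 6 listed Cadm1 sites in order of position (horizontal axis), with 1 point for each RRBS library and a bar at each group's mean. The 3 upstream sites are lower in maternal genistein tumours and the intronic pair is higher, with groups apart only at the third upstream site.

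The Cadm1 sites did not share 1 pattern over the libraries. The median r over the 15 pairs of sites was -0.23, and 0.16 with group means removed. The sites elsewhere that followed the intronic pair best were intronic as well: Dnmbp (chr19 position 43905720, r = 0.99), which encodes a scaffold for actin regulators, Rabgap1 (chr2 position 37451638, r = 0.97), which encodes a GTPase-activating protein, and Zswim6 (chr13 position 107888279, r = 0.96), a zinc-finger gene. Among 584 candidates, 19 had r above 0.9 over the 7 libraries that all points share. Group means were kept in these r values too, so they partly restate the selection of the sites.

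Ntn4 held 0 listed sites but had a region close to its start. The gene lies on chromosome 10 from 93641049 to 93745972 (GRCm38.p6, 105 kb). The nearest listed sites were an intronic site of Cfap54, a gene of cilia and flagella, 724 kb before it, and an exonic site of Fgd6, a gene for a Cdc42 exchange factor, 299 kb after it. The Cfap54 site at position 92917181 stood at 31.8% ± 26.6 (SD, n = 3) in control tumours against 67.0% ± 23.5 (SD, n = 4) with maternal genistein. The Fgd6 site at position 94045405 stood at 22.6% ± 19.9 (SD, n = 3) and 51.4% ± 31.1 (SD, n = 4). Both distances are far beyond the gene, and both sites are annotated to another gene. The distance of 299 kb is like the 293877 to 293989 bases of the upstream Cadm1 sites. Those sites were counted for Cadm1 because the annotation names it as a flanking gene.

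The deposited regions gave each gene 1 entry, as group means without values per library, so no error can be given. The Ntn4 region, chr10:93644430-93644525 (mm10), spans 96 bases from an intron into an exon and holds 7 CpGs, and it starts 3.38 kb after the gene start. In the authors' deposited table its mean methylation was 89.8% for control tumours and 43.5% with maternal genistein, a difference of -46.2 points. Ntn4 is thus the member whose region was lower with maternal genistein.

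The Cadm1 region, chr9:47532375-47533848, spans 1474 intronic bases with 7 CpGs, starts 2.21 kb after the gene start and contains the 2 intronic sites described above. The authors' deposited table gives it 11.4% for control tumours and 60.6% with maternal genistein, a difference of 49.1 points. The Sdk1 region, chr5:141903240-141903288, spans 49 intronic bases with 4 CpGs, and the authors' deposited table gives it 26.3% and 77.2%, a difference of 51.0 points. It contains 0 listed sites, and the nearest one lies 135 kb away, so it adds a further place in Sdk1 with more methylation. By size of the difference, the regions of Sdk1, Cadm1 and Ntn4 ranked 44, 57 and 71 of 139 in the authors' deposited table. That table holds 47 regions higher and 92 lower, with a median size of 46.3 points, which the Sdk1 and Cadm1 regions exceeded and the Ntn4 region nearly equalled.

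**Figure D3:**
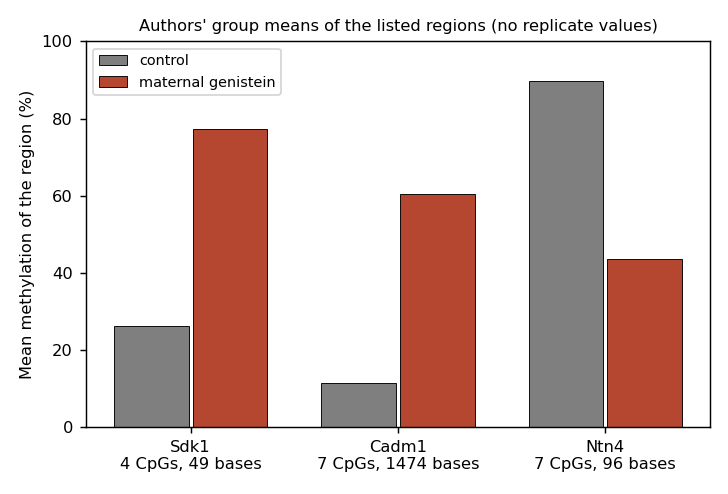
Mean percent methylation of the Sdk1, Cadm1 and Ntn4 regions in control and maternal genistein tumours, as the authors' deposited group means, with no error available. Sdk1 and Cadm1 go up by about the amount that Ntn4 goes down, with differences of 51.0, 49.1 and -46.2 points.

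The RNA comparison called 2 of the 3 genes, and both had positive fold changes. Which group is the numerator of the deposited fold changes is not stated in their header. Positive values were taken as higher with maternal genistein, because chromosomes with more positive genes had more RRBS reads in those tumours (Pearson's r = 0.91 over 20 chromosomes, which share libraries). That reading takes RNA to follow DNA dosage, and the opposite reading would turn every RNA direction below. In bulk tumours, fewer cells of a type and less RNA per cell cannot be told apart.

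Sdk1 (ENSMUSG00000039683) had a log2 fold change of 4.58 (SE 0.47) in the authors' deposited table, a 23.9-fold difference, with a DESeq adjusted p of 7.66e-19. Its mean normalised count over all libraries was 521 in the authors' deposited table, and its p-value was the 6th lowest of the 1324 listed genes. By edgeR, the authors' deposited table gives 4.56 with a false discovery rate of 8.83e-13. Levels per library were not used here, so the overlap of the groups in RNA cannot be described.

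Ntn4 (ENSMUSG00000020019) had a log2 fold change of 1.49 (SE 0.49) in the authors' deposited table, a 2.81-fold difference, with a DESeq adjusted p of 0.0319. The mean normalised count of Ntn4 in the authors' deposited table was 860, its edgeR value was 1.47 with a false discovery rate of 0.0283, and its p-value ranked 1086 of 1324. Sdk1 was thus near the top of the list and Ntn4 far down in it. The RNA of Cadm1 was not analysed here. The adjusted p-values imply that 1521 genes passed at the last listed one, more than the 1324 used, so a gene without a line is not shown to have missed the threshold.

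Of the 18425 genes that the adjustment implies were tested, 7.19% were listed, and 4.17% were listed as higher. Among the listed genes 70.5% also had an edgeR false discovery rate under 0.05, as both called members did. Since the members were chosen from this table, nothing is read from these shares.

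In the deposited pairing of called genes with listed sites, Sdk1 had the most sites of all, 9 of 589 pairs over 353 genes with a median of 1, and 0 other genes had as many. Its pairs lay 35.9 to 819 kb from the gene start. Cadm1 and Ntn4 had 0 pairs. Sdk1 RNA and Sdk1 gene-body methylation were thus higher together, while Ntn4 RNA was higher where its region was less methylated.

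The wider set of adhesion and guidance genes was read in 9 lists with 172 genes, which include Sdk1, Cadm1 and Ntn4. Without those 3, 37 of 169 genes were called in RNA (21.9%, against 7.19% of all genes tested), 19 higher and 18 lower, with a median log2 fold change of 0.81 against 0.89 over all called genes. Which list genes the authors tested is not known, so all stay in the totals, the lists were chosen with results known, and no test was made. Without the 3 members, 42 genes had 91 listed CpG sites, of which 48.4% were higher, against 53.1% of all listed sites, and 11 genes were called and had a site. For comparison, 1540 genes in all had a listed site. The deposited pairing of called genes with sites held 353 genes, against 1324 called genes. That pairing may assign sites by another rule, so the counts for these lists are not read as a trait of adhesion genes. The counts per list below include the members. The direction in RNA differed from list to list. Among all 1324 called genes, 768 were higher and 556 lower. Values that follow are log2 fold changes with their standard errors.

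Among sidekicks, contactins and L1-type molecules, immunoglobulin proteins that bind between nerve and other cells, 3 of 20 were called and all 3 were higher. Beside Sdk1, the authors' deposited table gives 5.18 (SE 0.83) for contactin gene Cntn5 and 3.23 (SE 0.61) for Sdk2. Both sidekick genes were therefore called as higher. Among nectins and nectin-like molecules, the family of Cadm1, 1 of 14 was called, a share like that of all genes, with 1.21 (SE 0.41) for Nectin4, an epithelial nectin, in the authors' deposited table.

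Among netrins and their receptors, 2 of 12 were called in opposite directions. Beside Ntn4, the authors' deposited table gives -1.52 (SE 0.47) for Unc5c, a netrin receptor known for repulsion. The Slit and Robo list, ligands and receptors of a second guidance pathway, had 1 of 7 called, with -3.51 (SE 1.15) for the ligand Slit2 in the authors' deposited table. The secreted guidance genes Ntn4 and Slit2 thus had opposite signs.

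Semaphorins, plexins and neuropilins, guidance ligands and their receptors, had 11 of 31 called, 5 higher and 6 lower. The authors' deposited table gives -3.70 (SE 0.55) for Sema5a, -4.01 (SE 0.70) for Plxnb3, which encodes the receptor of Sema5a, and -1.78 (SE 0.47) for Sema4g. It also has higher members, and the authors' deposited table gives 2.76 (SE 0.47) for Sema4f, 1.28 (SE 0.25) for the receptor gene Plxna3 and 1.04 (SE 0.28) for the secreted ligand gene Sema3c. A ligand and its receptor, Sema5a and Plxnb3, were both lower. Ephrins and Eph receptors had 4 of 22 called, all higher, and the authors' deposited table gives 1.71 (SE 0.28) for Ephb6, 1.26 (SE 0.30) for Epha1, 0.83 (SE 0.24) for Efnb1 and 1.38 (SE 0.47) for Efnb2.

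Cadherins and catenins, among them the core of adherens junctions, had 4 of 25 called, 3 higher and 1 lower. This list also holds Cdh13, the lipid-anchored cadherin named above. Cdh4 in the authors' deposited table stood at 3.74 (SE 0.97), Cdh3, the P-cadherin of basal epithelium, at 2.09 (SE 0.71), Cdh15 at 1.47 (SE 0.48) and the delta-catenin gene Ctnnd2 at -2.25 (SE 0.68). By edgeR, the authors' deposited table has a false discovery rate of 0.0669 for Cdh15 and 0.0737 for Cdh3, so 2 of the 4 passed by that method.

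Laminins, nidogens and type IV collagens, the sheet in which netrin-4 lies, had 8 of 22 called, 3 higher and 5 lower. The chains Col4a3 at 4.72 (SE 0.84) and Col4a4 at 2.93 (SE 0.60) were higher by the authors' deposited table. By the authors' deposited table the genes Lamc1 at -1.36 (SE 0.26), Lama4 at -1.92 (SE 0.43), Nid2 at -1.64 (SE 0.38) and Col4a2 at -1.27 (SE 0.38) were lower. Lamc1 encodes the laminin chain that netrin-4 is known to bind, so netrin-4 and this partner had opposite signs. Integrins, receptors for that matrix, had 5 of 19 called, 1 higher and 4 lower. Itgb6, an epithelial subunit, in the authors' deposited table stood at 1.35 (SE 0.37), against -3.19 (SE 0.61) for Itga8, -1.70 (SE 0.44) for Itgb3, -1.25 (SE 0.36) for the laminin receptor gene Itga6 and -1.40 (SE 0.42) for Itga9.

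**Figure D4:**
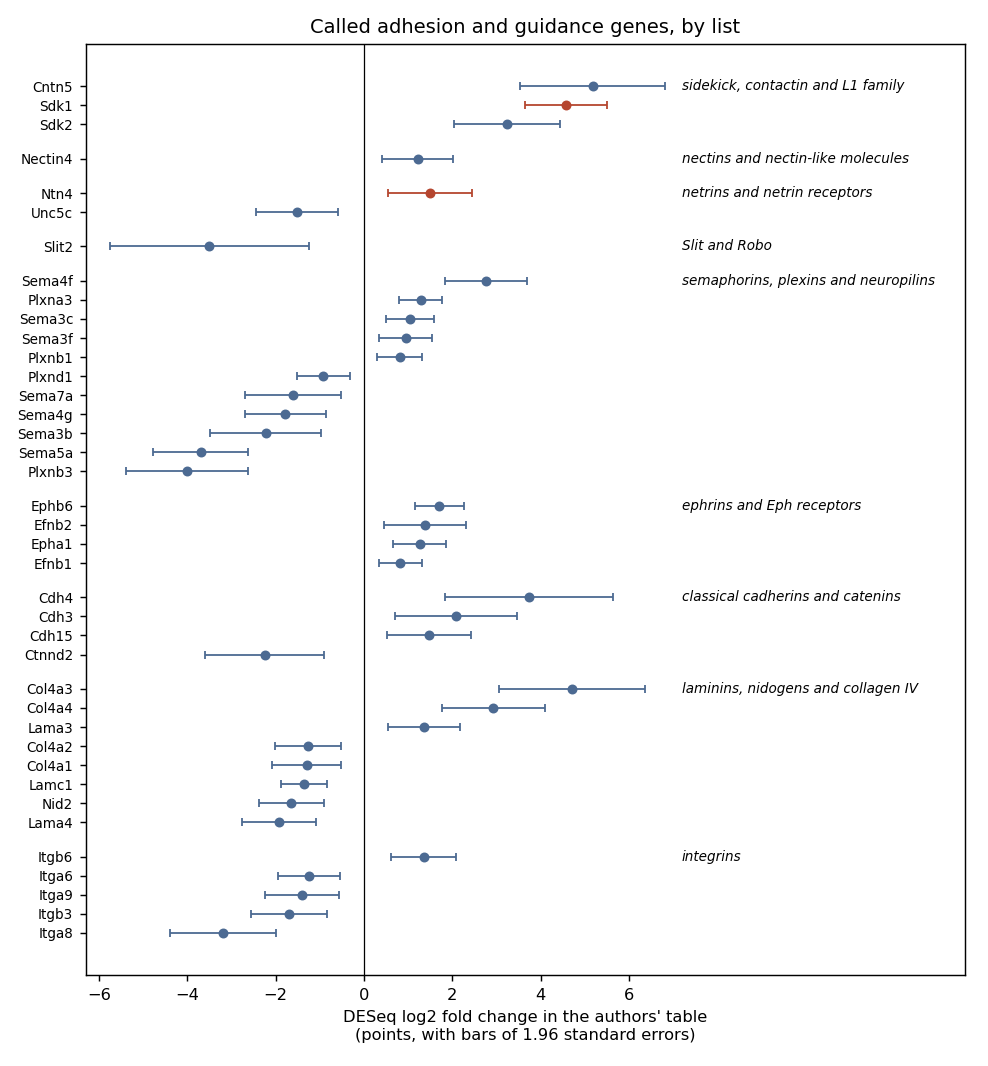
DESeq log2 fold changes (horizontal axis) of the 39 called genes in the 9 adhesion and guidance lists, grouped by list, with 95% normal intervals computed from the standard errors of the authors' deposited table and Sdk1 and Ntn4 in red. Sidekick and contactin genes and ephrins are higher, whereas semaphorins, laminins and integrins hold genes of both signs.

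Some markers of cell types were called in the same comparison. Of 21 such markers 5 were called, against 7.19% of all genes, 2 of them higher and 3 lower, and the others were not analysed here. The called markers of basal epithelium were higher, and the authors' deposited table gives 4.73 (SE 0.71) for Trp63 and 4.49 (SE 0.78) for the keratin gene Krt5. Krt14 and Acta2, the other basal markers chosen, were among those not analysed. Elf5 at -2.68 (SE 0.50), a factor of luminal progenitors, and the luminal keratin gene Krt18 at -1.18 (SE 0.40) were lower in the authors' deposited table. Sox10, chosen as a marker of neurons and glia, was also lower there, at -2.89 (SE 0.75). Its mean normalised count in the authors' deposited table was 7341, above 2138 for Trp63 and 1396 for Krt5. Which cells expressed Sox10 is not known here, so its value is not read as a change in nerve or glia. The part of these markers in the adhesion gene values was not tested.

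Called genes near the members were also read. For comparison, 768 of all 1324 called genes were higher and 556 lower. Within 5 Mb of Cadm1, 9 of 9 called genes were higher, with log2 values from 0.82 to 2.11 in the authors' deposited table. The 2 called genes near Sdk1 were higher, with 0.94 for Fscn1, which encodes an actin bundling protein, and 1.29 for 0610040B10Rik in the authors' deposited table. Near Ntn4, 1 of 4 called genes was higher, and the authors' deposited table gives -1.13 for Fgd6, 0.29 Mb away. Over whole chromosomes, chromosome 5 had 45 of 60 called genes higher, chromosome 9 had 103 of 119 and chromosome 10 had 17 of 55. Ntn4 was higher on a chromosome where most called genes were lower.

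The difference in RRBS read number between the diets was not itself a criterion for the genes, although the list keeps only sites with 10 or more reads per library and its q-values depend on depth. Relative coverage is the log2 read count at a site, less the site's mean over libraries and the library's autosomal median, and a gene's value is the median over its sites. At Sdk1 it was -0.07, -0.03 and 0.20 in control libraries and -0.23, -0.19, -0.20 and 0.22 in maternal genistein libraries. The means were 0.03 ± 0.15 (SD, n = 3) and -0.10 ± 0.22 (SD, n = 4), a difference of -0.13, with an exact two-sided permutation p = 0.4 (0.543 after Benjamini-Hochberg adjustment over 2 genes). At Cadm1 it was -0.11, 0.15 and -0.48 in control libraries and 0.12, 0.76, -0.63 and 0.07 in maternal genistein libraries, and both groups spread widely and overlapped. The Cadm1 means were -0.15 ± 0.32 (SD, n = 3) and 0.08 ± 0.57 (SD, n = 4), a difference of 0.23 with exact permutation p = 0.543 (adjusted 0.543). Single libraries decided these sizes. Without the third control library the Sdk1 difference was -0.05, and without the fourth maternal genistein library it was -0.24. The Cadm1 difference was 0.00064 without the second maternal genistein library, 0.06 without the third control library, 0.38 without the second control library and 0.46 without the third maternal genistein library. The smallest p this design allows is 0.0286. These tests do not show that coverage was equal.

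All listed sites within 10 Mb of each gene were used as a wider measure, which was chosen after the data were seen. It gave 0.14 for Sdk1 over 82 sites, 0.23 for Cadm1 over 72 and -0.36 for Ntn4 over 26, with exact permutation p = 0.257, 0.143 and 0.143 (adjusted 0.257, 0.214 and 0.214). For Sdk1 the sign differed between its own sites and the wider window, so no direction is given. Coverage within 10 Mb of Ntn4 averaged 0.25 ± 0.31 (SD, n = 3) over control libraries and -0.12 ± 0.28 (SD, n = 4) over maternal genistein libraries, whereas Ntn4 RNA was higher in the latter.

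**Figure D5:**
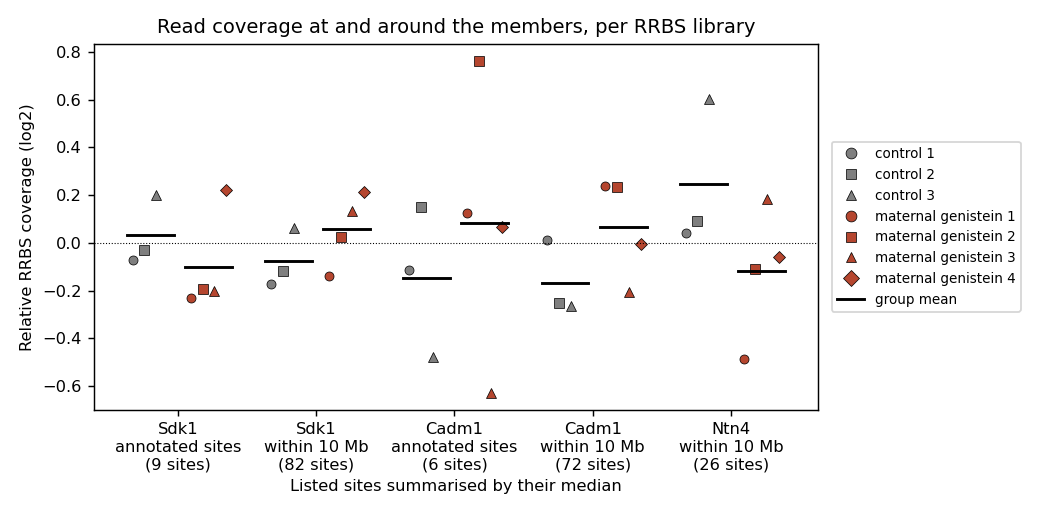
Relative log2 RRBS coverage (vertical axis) at the sites of Sdk1 and Cadm1 and at all listed sites within 10 Mb of each of the 3 genes, with 1 point for each library and a bar at each group's mean. The groups overlap for all 3 genes, with differences of 0.14, 0.23 and -0.36 within 10 Mb.

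The depth of the libraries limits these values unevenly. Reads at listed sites numbered 203672 to 226194 in control libraries and 113967 to 210974 in maternal genistein libraries. The fourth maternal genistein library was the shallowest, with a median of 21 reads at member sites against 41 to 56 in the others.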

How the data were processed

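Sdk1, Cadm1 and Ntn4, the gene lists, the tests and the alternatives were chosen with earlier results of these data known. For RNA, the authors deposited, for called genes only, a normalised count averaged over all libraries (a signal), log2 fold changes, p-values and adjusted p-values from DESeq and edgeR. A gene with several lines was counted once. At each listed CpG site the authors deposited counts of methylated and of all reads for every library, with a q-value and a score giving the difference in percentage points, which equals the difference of pooled reads. The largest q-value in that list was 0.00959, the smallest difference 25.0 points and the lowest coverage 10 reads. The region table holds the authors' group means as a fraction, printed here as percent. The submitters' processing notes name Bismark, Trim Galore, STAR, HTSeq, FastQC, DESeq and R 3.6.1, with builds mm10 and GRCm38, and no role for each.

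Methylation levels are methylated over total reads per library, averaged per group without weighting. Groups are called apart when no library of one overlaps the other. Relative coverage was compared with an exact two-sided permutation test of the absolute mean difference. The test was checked on simulated methylation levels without a group difference, and not on simulated coverage. Reads are not independent molecules, so intervals and limits of a 0 count (3 reads) cover counting error only. The named genes are the 3 members with all their sites and regions, every called gene of a list up to 6 or else the 6 with the lowest adjusted p, the 3 most similar sites and the nearest listed sites. Other called list members appear in counts and in the plot. Python 3.11.15, numpy 2.4.6, pandas 2.3.3 and scipy 1.17.1 were used. Alternatives were pooled reads, 20 reads in every library, a gap of 5 points, other centring of coverage, edgeR calls, the replicate block and leaving out each library.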

Additional observations from a re-analysis of the deposited data

Results flagged for a closer look

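In 17 groups of 4 maternal genistein libraries, 4 had a library far from the other libraries, its gap to the nearest of them, as a ratio of the whole range, passing Dixon's 95% critical value; chance gives this in about 5% of independent groups. Here the groups share the same libraries and the sites were selected on these levels, so the number that passed is a description and not a test. At Sdk1 position 141557016 the second library, at 63.5%, stood low with a ratio of 0.888. At position 141627924 the third library, at 95.3%, stood low with a ratio of 1, because the other libraries were all at 100%, the upper limit of the scale. At position 142060340 the third library, at 77.9%, stood low with a ratio of 0.838. In the relative coverage of Sdk1 the fourth library, at 0.22, stood high with a ratio of 0.917, and this library was also the shallowest. At each of these 3 sites the maternal genistein libraries remained above the controls. The causes were not tested.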

How the results depend on the processing

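Among the values under alternatives, 86 kept their direction and their side of the threshold or, for values without a test, stayed within the replicate spread (for counts, close to the reported count), 5 moved and 1 reversed. Staying on one side of the threshold does not fix a size: leaving out a library gave relative coverage differences of -0.24 to -0.05 at Sdk1 and 0.00064 to 0.46 at Cadm1. The number of Cadm1 sites with groups apart was 1, fell to 0 at 20 reads in every library, which left 3 of 6 sites, and ranged from 1 to 3 when a library was left out (2 without the second control library, 3 without the third control or the second maternal genistein library). The relative coverage at Sdk1 was -0.13 and turned to 0.14 with all sites within 10 Mb. Among cadherins and catenins the called genes fell from 4 to 2 by edgeR. At all 15 sites the sign of the difference held when any 1 library was left out. At 20 reads 6 of 9 Sdk1 sites were left, with a mean difference of 35.3 points, and 4 of them had groups apart. The number of Sdk1 sites apart was 5, and it was 4 with a gap of 5 points. It rose to 7 without the first control, the first maternal genistein or the second maternal genistein library. These counts were taken as close to the reported one.

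No pairing by replicate number was seen: deviations of same-numbered libraries from their group means correlated at 0.022, 0.009 and -0.032. Differently numbered libraries correlated at -0.073 to 0.053. The check was not shown to be able to see a pairing, so it cannot exclude one. With a replicate block, which uses 3 pairs and so leaves out the fourth maternal genistein library, the difference was 37.5 points at Sdk1, 36.6 at the Cadm1 intron, -49.4 upstream and 33.4 downstream of Cadm1, and relative coverage was -0.24 at Sdk1 and 0.23 at Cadm1. Each of these values equals the one obtained by leaving out the fourth maternal genistein library alone. Depth limits single-library levels most at sites with 10 to 20 reads.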
